A study of Mus musculus with 30 samples.

Results

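The genes described here are the nuclear-encoded subunits of the mitochondrial respiratory chain and ATP synthase in mouse liver. They were taken by gene name, as those beginning with Nduf (complex I), Sdha to Sdhd (complex II), Uqcr (complex III), Cox4 to Cox8 (complex IV) or Atp5 (complex V). Assembly factors of the Ndufaf group, predicted genes and pseudogenes were left out. This gave 78 of the 14259 genes listed for postnatal day (PND) 1 and PND21, with 37 in complex I, 4 in complex II, 8 in complex III, 12 in complex IV and 17 in complex V. At PND42, 76 of 13091 listed genes matched, because Cox6b2 is not among them and Atp5mpl carries the symbol 2010107E04Rik there. All of these members passed the filter on low values in every comparison, so that no member was dropped.

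Complexes I and II feed electrons from NADH and succinate into the inner mitochondrial membrane, complex III passes them to cytochrome c, and complex IV hands them to oxygen. Complexes I, III and IV pump protons as they do so, and complex V, the ATP synthase, lets the protons back and makes ATP. Complex II is encoded by nuclear genes alone, while the other complexes also hold subunits made from mitochondrial DNA. Hepatocytes are rich in mitochondria, and the liver draws on this chain for gluconeogenesis, urea synthesis and fatty acid oxidation. Cadmium is a toxic metal that accumulates in liver and kidney.

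Liver RNA came from CD-1 mice, an outbred stock, exposed in the womb to CdCl2 at 500 ppb or left as controls, and each library carries the label of a separate liver. The route and days of dosing, the litters and whether any livers were pooled are not given in the sources used here. Exposed and control females numbered 4 and 4 at PND1 and 3 and 3 at PND21. At PND42 there were 4 exposed and 4 control females and 4 exposed and 4 control males, which made 30 libraries. The question, per the series' title and design, was what gestational cadmium does to liver transcripts at each of these ages. Reads recovered for the listed genes ran between 22027514 and 40088312 per library, and values are read counts normalised for library size. Within an age, read totals of exposed and control libraries overlapped except at PND21, where exposed livers had 24800467 to 28260376 and controls 22027514 to 24589311 reads. All 5 hepatocyte markers (Alb, Apoa1, Apob, Ttr, Serpina1a) were listed and above 0 in every group, with a summed level of at least 986014 normalised counts in each library. The exons of 27 of the 78 members overlap those of another annotated gene, Ndufb8, Ndufs1, Ndufs3, Uqcrc2, Uqcrb, Cox5a, Atp5a1, Atp5f1 and Atp5j among them. The strand setting of the counting is not given, so reads of such pairs cannot be told apart. Of the PND42 controls, 1 female and 3 male columns carry no replicate number and are called unnumbered. The tag of the unnumbered female column equals one that the labels give to a PND21 control, so its sample is uncertain.

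Promoters of respiratory genes are known for sites of the factors NRF1, GABPA (an ETS factor), YY1 and ERR alpha. The 300 bases around RefSeq transcript starts (250 before and 50 after, GRCm38.p6) were found for 64 of the 78 members and searched on both strands for the letters CGCNTGCGC (NRF1), CCGGAAG (ETS), AANATGGCG (YY1) and TCAAGGTCA (ERR alpha). NRF1 letters were present in 20 of 64 members (31.2%), against 7.03% of 27025 genes with a promoter entry. For ETS letters the counts were 16 members (25%) and 9.93% of genes, and for YY1 letters 10 members (15.6%) and 2.76% of genes. ERR alpha letters were present in 2 members (3.12%) and in 0.47% of genes. The 110 bases before the start are given below, 5′ to 3′ on the gene's strand, for genes that the results turn on. These are the catalytic subunit of complex II, a complex I subunit that went against its complex at PND42, and the 3 genes for the c subunit of ATP synthase. Capitals mark matches to NRF1 letters on either strand, except in Atp5g3, where they mark ERR alpha letters.
Sdha (chr13:74350241-74350350, minus strand): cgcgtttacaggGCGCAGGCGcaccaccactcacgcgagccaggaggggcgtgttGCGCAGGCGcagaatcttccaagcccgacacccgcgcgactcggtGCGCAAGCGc
Ndufb4 (chr16:37654369-37654478, minus strand): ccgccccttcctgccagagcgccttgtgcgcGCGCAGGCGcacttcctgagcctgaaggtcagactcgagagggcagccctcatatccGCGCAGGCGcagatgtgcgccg
Atp5g1 (chr11:96075632-96075741, minus strand): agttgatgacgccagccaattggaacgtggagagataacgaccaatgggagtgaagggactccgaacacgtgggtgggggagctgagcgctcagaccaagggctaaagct
Atp5g2 (chr15:102671048-102671157, minus strand): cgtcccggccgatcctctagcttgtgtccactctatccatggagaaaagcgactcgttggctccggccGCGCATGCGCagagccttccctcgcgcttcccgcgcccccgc
Atp5g3 (chr2:73911327-73911436, minus strand): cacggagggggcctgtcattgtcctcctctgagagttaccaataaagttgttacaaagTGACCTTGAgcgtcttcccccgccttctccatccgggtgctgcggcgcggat

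In these stretches Sdha held 3 separate NRF1 matches and Ndufb4 held 2, while the 10 capitals in Atp5g2 are 2 overlapping matches, since the letters can be read on both strands. Atp5g1 held none of the 4 motifs in its window. Sdha and Ndufb4, which both carry repeated NRF1 letters, moved in opposite directions in exposed PND42 females. Of the members with a promoter entry, NRF1 letters were present in 9 of the 29 that fell in that comparison and in 9 of the 32 that did not pass the test.

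Exposed PND42 females had lower levels of subunits of every complex than control females of that age. By limma with Benjamini-Hochberg adjustment over 13091 genes (adjusted p under 0.05), 36 of 76 members were lower and 3 were higher, against a background of 21.4% of all genes lower and 18.9% higher. The members' median log2 fold change was -0.53, against 0.00 for all genes tested, and 58 of 76 were negative, against 49.9% of genes. In 40 members every exposed female lay below every control female, and in 3 every exposed female lay above, while for all genes these shares were 23.5% and 22.3%. Complex II had the lowest median (-1.50), followed by complex III (-0.83), complex V (-0.64), complex I (-0.39) and complex IV (-0.20). The counts lower and higher were 15 and 2 of 37 in complex I, 3 and 0 of 4 in complex II, 5 and 0 of 8 in complex III, 5 and 0 of 11 in complex IV, and 8 and 1 of 16 in complex V. Without the female column of uncertain sample, 34 members were lower and 1 higher. In whole liver, fewer hepatocytes and less RNA per cell cannot be told apart.

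**Figure D1:**
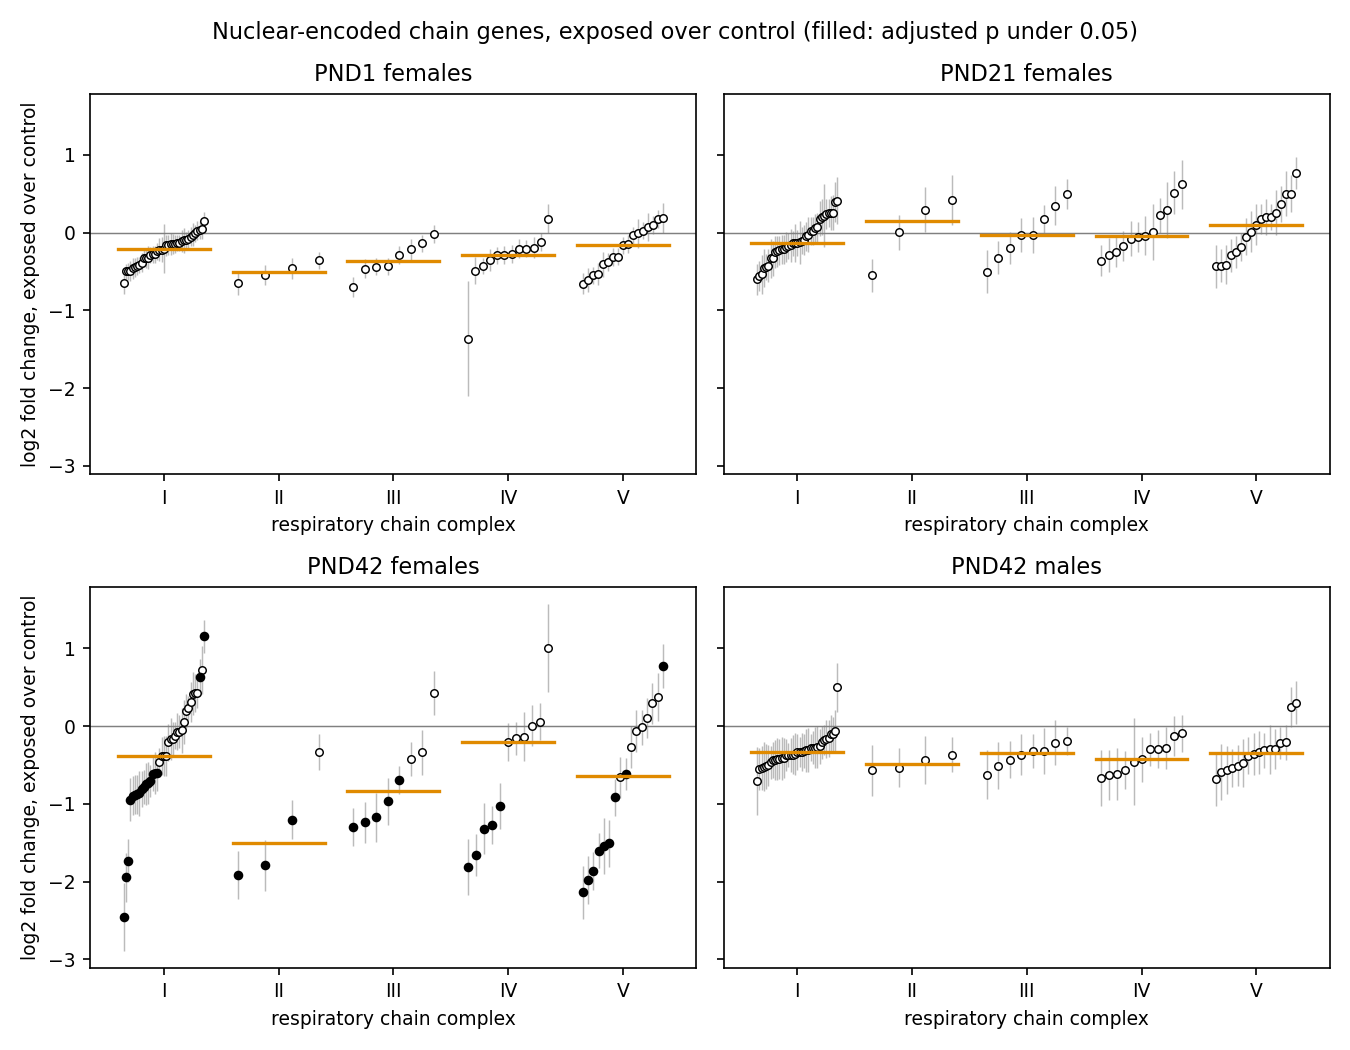
Log2 fold change of exposed over control for each member, by complex, at PND1, PND21 and PND42 in females and at PND42 in males; grey lines are the SE, orange lines the median of a complex, and filled points have an adjusted p under 0.05. Filled points are present for PND42 females alone, where the complex II median is -1.50 and the complex IV median is -0.20.

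Complex II showed the lowest median of the 5 complexes. Sdha, its flavoprotein, which oxidises succinate, had 2131, 1876, 1821 and 2279 normalised counts in exposed females, against 5588, 12918, 6553 and 7129.8 in control females (log2 fold change -1.92 ± 0.31, adjusted p = 0.000182). No exposed female reached the lowest control, and the control with 12918 stood far above the rest. Sdhd, a membrane anchor of the complex, had 1364, 1604, 1249 and 1533 in exposed and 3947, 7097, 4206 and 5156 in control females (-1.79 ± 0.32, adjusted p = 0.000454). For Sdhc, the other anchor, exposed females had 2267, 2035, 1874 and 2393, below all of 5344, 4901, 5161 and 4329 in control females (-1.21 ± 0.25, adjusted p = 0.00125). The iron-sulfur subunit Sdhb did not pass the test. It had 6308, 5192, 5937 and 5114 in exposed and 8073, 7087, 6516 and 6782 in control females, which again did not overlap, with a fold change of -0.34 ± 0.23 (95% interval -0.82 to 0.15, adjusted p = 0.255). Per kilobase of exon, Sdhb stood at 2518 ± 259 normalised counts in exposed and 3178 ± 304 in control females (SD, n = 4 each), while Sdha stood at 491 ± 52.3 and 1950.3 ± 802 in the same groups.

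Among complex I genes, the lowest fold change was that of Ndufb8, an accessory subunit of the membrane arm. It had 136, 113, 83.4 and 166 normalised counts in exposed females, against 434, 941, 687 and 704 in control females (-2.45 ± 0.43, adjusted p = 0.000469). Ndufc2, another membrane arm subunit, averaged 533 ± 116 in exposed and 1746 ± 162 in control females (SD, n = 4 each; -1.73 ± 0.28, adjusted p = 0.00016). Ndufa4, named as a complex I subunit but now regarded as part of complex IV, averaged 2219 ± 329 in exposed and 8538 ± 1134 in control females (n = 4 each; -1.95 ± 0.32, adjusted p = 0.000187).

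Core subunits of complex I, which carry its flavin, iron-sulfur clusters and quinone site, were divided between members that passed and members that did not. Ndufv1, the flavin subunit, fell by 0.95 on the log2 scale (adjusted p = 0.0109). Ndufs3 (-0.71 ± 0.20) and Ndufv2 (-0.60 ± 0.23) were also lower, though the Ndufv2 call was lost in some fits without 1 library. Values that did not pass were -0.47 ± 0.19 for Ndufs1 (adjusted p = 0.0571), -0.16 ± 0.21 for Ndufs7 and -0.07 ± 0.22 for Ndufs8. For Ndufs8 the 95% interval was -0.52 to 0.38, which leaves out a fall of the size seen in Ndufc2 or Ndufb8.

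A pair of complex I members rose while 15 fell. Ndufb4, an accessory subunit of the membrane arm, had 1609, 1386, 947 and 1339 normalised counts in exposed females, against 654, 435, 589 and 690.1 in control females (1.15 ± 0.21, adjusted p = 0.000513). Every exposed female stood above every control. Of the 125-base stretches of Ndufb4's transcripts, the length of a read, 14.9% also occur in other genes. The gene that shares the most of them is Ndufb4c, which is not among the listed genes. Ndufa5, an accessory subunit of the matrix arm, had 3566, 2491, 2389.8 and 2641 in exposed and 2014, 1417, 1953 and 1744 in control females (0.63 ± 0.23, adjusted p = 0.0344). The Ndufa5 call was lost in some fits that left out 1 library, with fold changes between 0.50 and 0.70 over all settings.

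In complex III the core proteins Uqcrc1 and Uqcrc2 and several small subunits were lower. Uqcrc2 had 3272, 3048, 2842 and 3822 normalised counts in exposed and 8269.5, 8968, 6513 and 8178 in control females (-1.30 ± 0.24, adjusted p = 0.000521). Exposed females had 2875, 2505, 2506 and 2789 of Uqcrc1, against 6544, 6798, 6301 and 5575 in control females (-1.24 ± 0.26, adjusted p = 0.00129). Neither gene overlapped between groups. Uqcrh, the hinge protein, fell by 1.17, Uqcr10 by 0.97 and Uqcrb, which lies near a quinone site, by 0.70 on the log2 scale. The Uqcr10 call was lost in some fits without 1 library. The Rieske iron-sulfur protein Uqcrfs1, a catalytic subunit, did not pass (-0.43 ± 0.22, adjusted p = 0.128), nor did Uqcr11 (-0.34 ± 0.29) or Uqcrq (0.42 ± 0.28).

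Complex IV was divided between members with large falls and members near 0. Cox5a, a matrix-side subunit, had 1193, 1151, 1274 and 1638 normalised counts in exposed females, against 4254, 4765, 5126 and 4221 in control females (-1.81 ± 0.36, adjusted p = 0.000964). Its partner on the matrix side, Cox5b, had 3651, 3262, 3884 and 3518 in exposed and 4879, 2998, 4815 and 3599 in control females, and the groups overlapped (-0.16 ± 0.21, 95% interval -0.61 to 0.29). Cox7a2l, which joins complexes III and IV into supercomplexes, had 607, 587, 549 and 656 in exposed and 1614, 2071, 1795 and 2121 in control females (-1.66 ± 0.27, adjusted p = 0.000208). Cox6a1 (-1.32 ± 0.33), Cox8a (-1.28 ± 0.25) and Cox7a2 (-1.03 ± 0.29), the liver-type forms of small subunits that also have muscle forms, were lower as well. Cox6b1 (-0.20), Cox7b (-0.14), Cox6c (0.01) and Cox7c (0.06) lay near 0 and did not pass.

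In complex V several genes of the catalytic head, its stalk and the c ring were lower. Atp5b, the catalytic beta subunit, had 5416, 5654, 5371 and 6599.6 normalised counts in exposed females, against 19833, 36974, 21791 and 25699 in control females (-2.14 ± 0.35, adjusted p = 0.000181). The alpha subunit Atp5a1 had 7196, 6869, 6901 and 7630.1 in exposed and 17168, 27436, 18448 and 19724 in control females (-1.51 ± 0.31, adjusted p = 0.000994). Atp5f1, the b subunit of the outer stalk, had 2227, 2265, 2123 and 2749.8 in exposed and 8457, 10258, 9209 and 9079 in control females (-1.99 ± 0.31, adjusted p = 0.000128), and Atp5c1, the rotating gamma subunit, fell by 0.92 on the log2 scale. Exposed females thus stood below control females without overlap for the alpha, beta, gamma and b subunits. Of the remaining small subunits, Atp5j was lower (-0.62 ± 0.20), a call lost in some fits without 1 library. Atp5o, also of the outer stalk, did not pass (-0.66 ± 0.27, adjusted p = 0.0547). Atp5d, Atp5e, Atp5h, Atp5j2, Atp5k and Atp5l lay between -0.27 and 0.38 and did not pass. Atp5s, a coupling factor that is not a structural subunit, was higher in exposed females (329, 410.4, 379 and 300.2) than in control females (266, 129, 289 and 181; 0.77 ± 0.28, adjusted p = 0.0348), a call lost in some fits without 1 library.

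**Figure D2:**
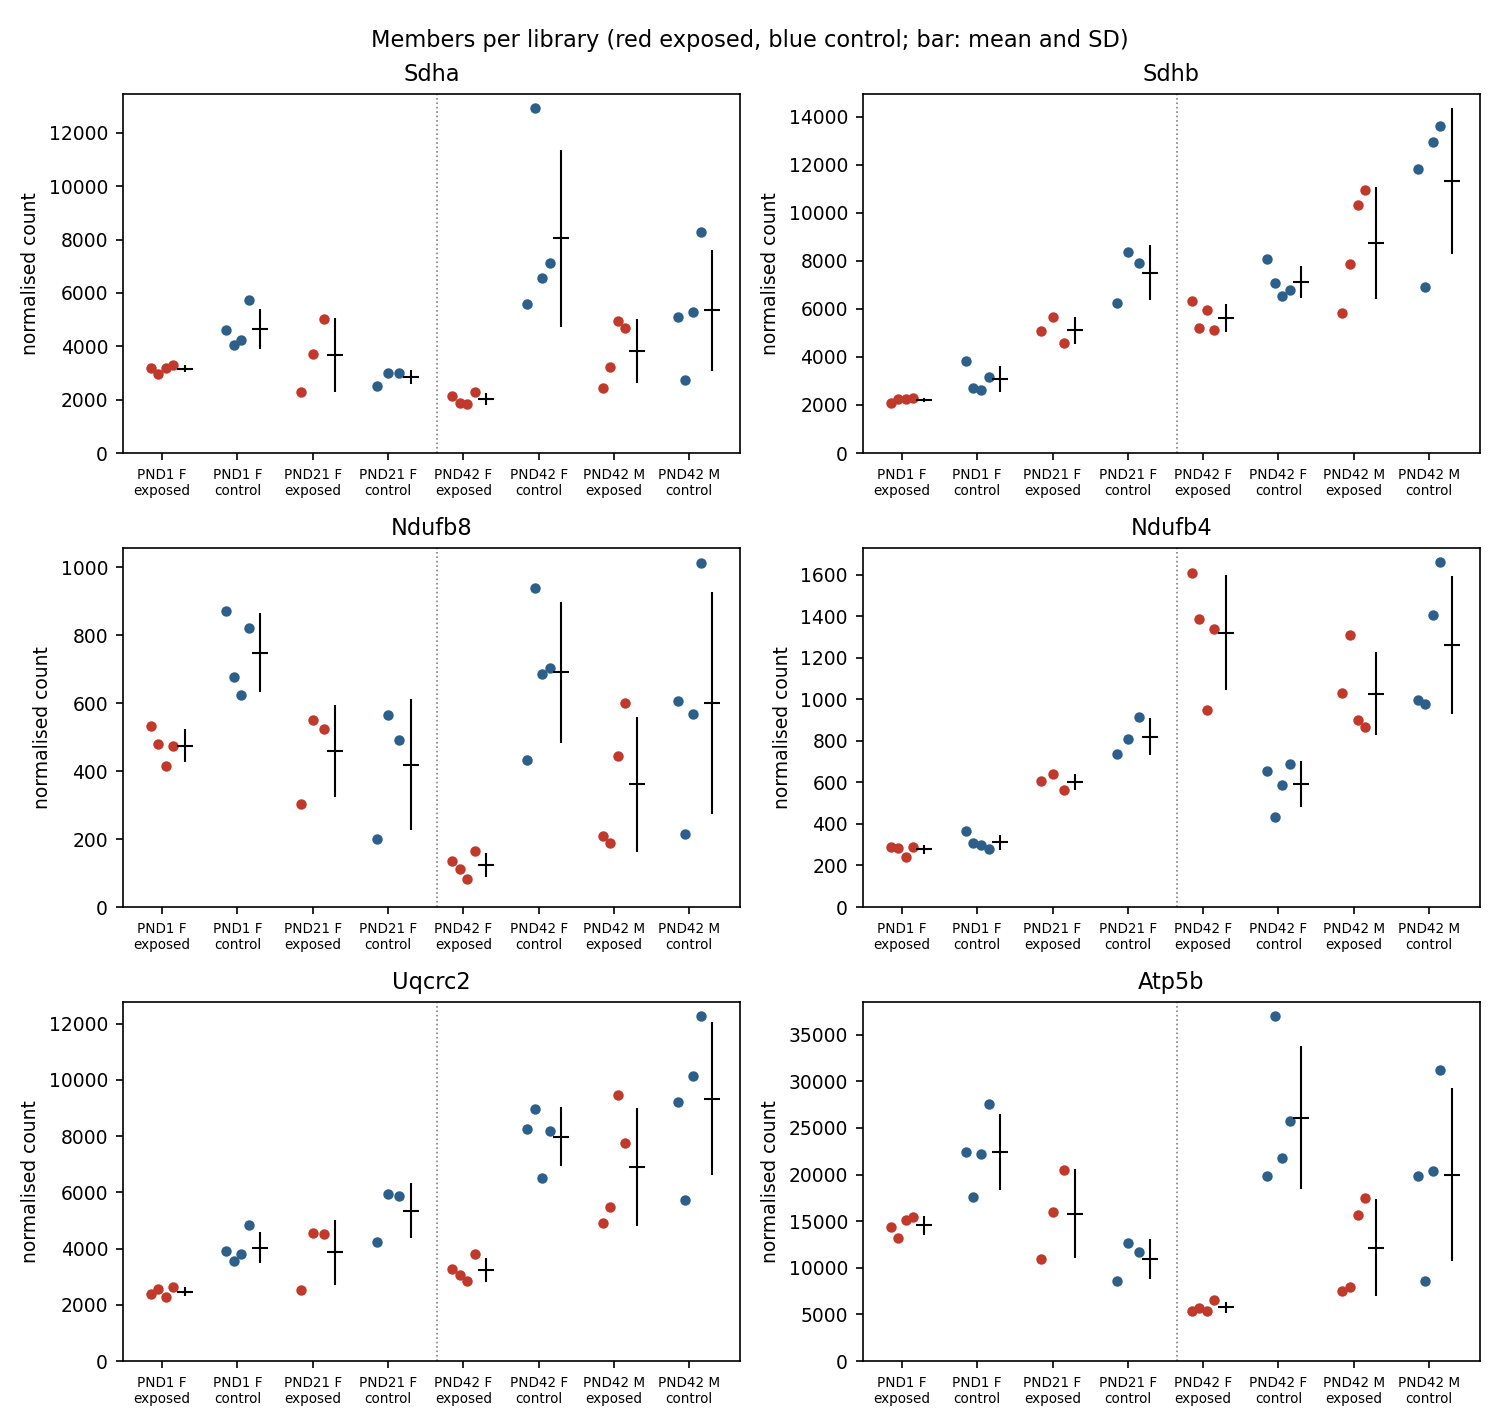
Normalised counts in each library for Sdha, Sdhb, Ndufb8, Ndufb4, Uqcrc2 and Atp5b, exposed left of control, with the group mean and SD; the dotted line parts tables that were scaled separately. In PND42 females Sdha lies between 1821 and 2279 in exposed and between 5588 and 12918 in control livers, while Ndufb4 lies between 947 and 1609 in exposed and between 435 and 690 in control livers.

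The c ring of ATP synthase is built from a single mature protein that Atp5g1, Atp5g2 and Atp5g3 each encode with a different import sequence. All 3 were lower in exposed PND42 females. Atp5g3 had 3740.1, 3892, 3680.4 and 5499 normalised counts in exposed and 12315, 10582, 15175 and 10855 in control females (-1.55 ± 0.36, adjusted p = 0.00263). Atp5g2 had 249.98, 334, 267 and 395 in exposed and 866, 998, 910.0 and 966 in control females (-1.60 ± 0.22, adjusted p = 6.03e-05). Of Atp5g2's read-length stretches, 33.7% also occur in other genes, with Gm10175 sharing the most, so the level of Atp5g2 is uncertain. Per kilobase of exon, Atp5g3 was the highest of the 3 at 1927 ± 398 in exposed and 5608 ± 965 normalised counts in control females (SD, n = 4 each). On the same scale Atp5g1 stood at means of 215 and 789, and Atp5g2 at 186 ± 39.6 and 558 ± 35.1, in exposed and control females.

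Atp5g1 had 1064, 916, 939 and 1311 normalised counts in exposed females, against 4968, 3647, 3221 and 3667 in control females (-1.87 ± 0.25, adjusted p = 4.04e-05). Of Atp5g1's read-length stretches, 5.41% also occur in other genes, and Gm10039 shares the most of them. Gm10039, a processed pseudogene on chromosome 11 (100361716 to 100362126, mm10), varied widely between livers. It had 1443, 1169.7, 1207 and 1418 in exposed and 16.0, 7.96, 1644 and 16.5 in control PND42 females. In PND42 males it had 1021, 955, 1782 and 12.1 in exposed and 1089, 18.6, 1599.5 and 1570.1 in control livers, and in PND1 females 502, 526, 16.7 and 495 in exposed and 506, 12.7, 1179 and 1193 in control livers. PND21 females had 1249, 30.8 and 1154 in exposed and 20.4, 34.6 and 27.7 in control livers. Gm10039 was thus high in some livers and near 0 in others of the same group, except in exposed PND42 females, where all 4 were high, and PND21 controls, where all 3 were near 0. With the reads of the copy added, a fit chosen after seeing the data, Atp5g1 remained lower in exposed PND42 females, with sums of 2507, 2086, 2146 and 2729, against 4984, 3655, 4865 and 3683 in control females. The fold change was then -0.85 ± 0.23 (adjusted p = 0.00689), where Atp5g1 alone gave -1.87. Of the 78 members, 59 shared no read-length stretch with another gene and 4 shared over 10% (Atp5g2, Ndufb4, Cox7c and Ndufs5).

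**Figure D3:**
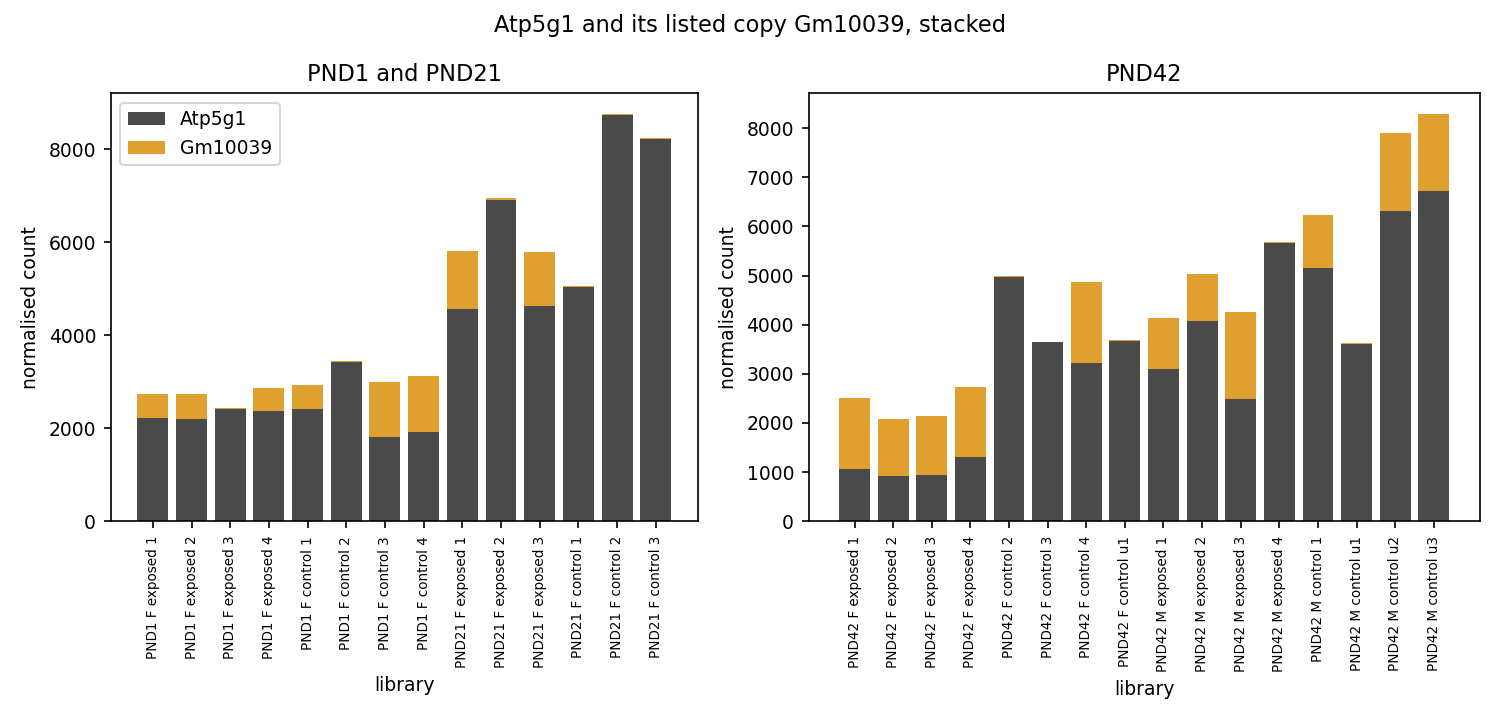
Normalised counts of Atp5g1 and of its processed pseudogene Gm10039 in each library, stacked, exposed left of control at each age and sex. Gm10039 is above 900 in 4 of 4 exposed and 1 of 4 control PND42 females, and is at 34.6 or less in the 3 PND21 controls.

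Other measures of the RNA moved with exposure in PND42 females. The share of reads from mitochondrial genes was 22.2% to 35.5% in exposed and 5.25% to 12.8% in control females. The mean log2 level of the nuclear RNAs Malat1 and Neat1 was 15.5 to 15.9 in exposed and 13.0 to 14.5 in control females. The summed level of 5 hepatocyte markers was 1178280 to 2183060 normalised counts in exposed and 2708660 to 3790090 in control females. Endothelial markers summed to 4855 to 5005 in exposed and 3856 to 4300 in control females, with 3 of 3 listed, and stellate and matrix markers to 4011 to 6093 in exposed and 6743 to 9209 in control females, also with 3 of 3 listed. Leukocyte markers, with 5 of 6 listed, summed to 623 to 791 in exposed and 845 to 1453 in control females. None of the listed markers was at 0 in all libraries of a group. Their part in the lower levels of nuclear-encoded subunits was not tested. By length, the median log2 fold change was -0.39 for the 38 members up to the median exon length and -0.64 for the 38 above it. Across all 76 members the relation of log10 exon length to fold change was weak (Pearson's r = -0.12, Spearman's rho = -0.08).

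In PND42 males the same comparison called no gene. By limma 0 of 13091 genes passed, and 5 members had an unadjusted p under 0.05, all lower, against 3.39% of all genes lower and 3.73% higher; limma voom on recovered reads also called 0 members. Of 76 members, 73 had a negative fold change (52.9% of all genes), with a median of -0.36, against -0.03 for all genes. In no member did the groups separate, against 0.894% of all genes higher and 0.833% lower without overlap. The members of lowest p were Ndufa12 (-0.37 ± 0.15), Cox8a (-0.57 ± 0.25), Ndufs4 (-0.47 ± 0.21), Atp5g1 (-0.54 ± 0.25) and Sdhc (-0.54 ± 0.25), each with an adjusted p of 0.622. Sdha had 2421, 3209, 4964 and 4697 normalised counts in exposed and 5090.1, 2756, 5282 and 8285 in control males (-0.44 ± 0.31). Atp5b had 7561, 7895, 15705 and 17506 in exposed and 19896, 8571, 20341 and 31184 in control males (-0.68 ± 0.35, 95% interval -1.41 to 0.05). In both genes the unnumbered control 1 lay well below the other controls and within the exposed range. Sdhb (-0.37 ± 0.23), Sdhd (-0.57 ± 0.32), Uqcrc2 (-0.43 ± 0.24), Uqcrh (-0.63 ± 0.32), Cox6a1 (-0.62 ± 0.33), Cox7b (-0.63 ± 0.32) and Atp5o (-0.51 ± 0.27) had negative values of like size that did not pass. Positive values were those of Ndufa4l2 (0.50), Atp5s (0.30) and Atp5l (0.24) alone.

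Control males spread widely. The mean log2 difference of the 76 members from the control mean was -0.54, -0.46, -0.19 and -0.21 in exposed males and -0.03, -0.77, 0.21 and 0.59 in control males. The mitochondrial share of reads in the same livers was 22.3%, 29.7%, 18.8% and 14.5% in exposed and 18.1%, 24.8%, 16.4% and 9.03% in control males. The control male with the lowest member mean thus had the highest mitochondrial share among controls, and the one with the highest mean had the lowest share. The members' median was -0.62 without the unnumbered control 1 and -0.17 without the unnumbered control 3. It was -0.26 with values rescaled to equal totals, where the median of all genes moved to 0.08.

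**Figure D4:**
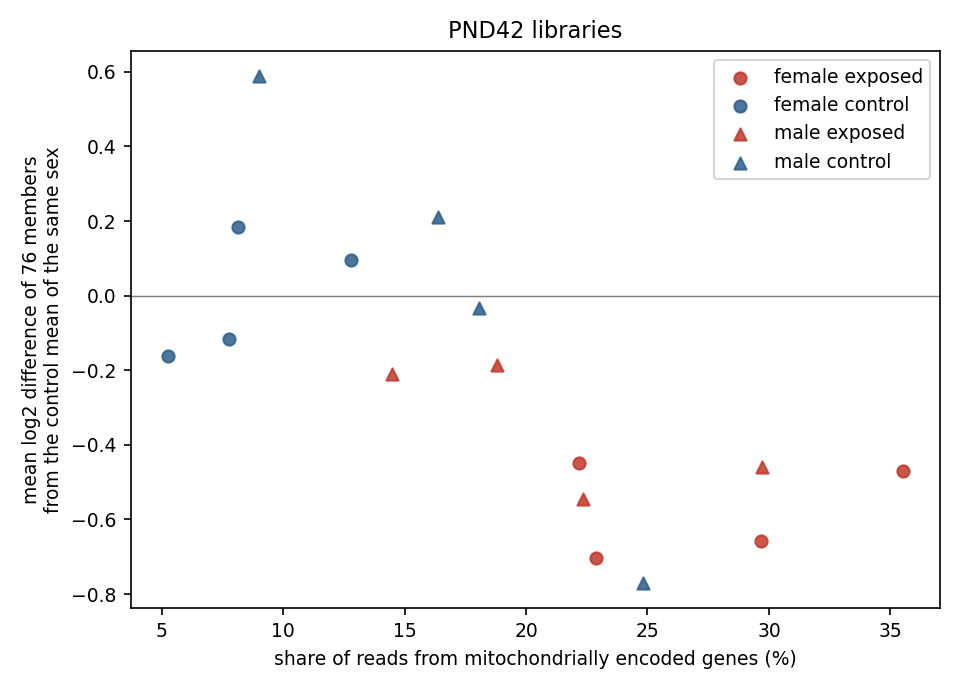
Mean log2 difference of the 76 members from the same-sex control mean (vertical axis) against the share of reads from mitochondrial genes in percent (horizontal axis) for each PND42 library. Exposed females lie at 22.2% to 35.5% with means of -0.70 to -0.45, control females at 5.25% to 12.8% with means of -0.16 to 0.18, and control males span 9.03% to 24.8% with means of 0.59 to -0.77.

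The exposure effect itself differed between the sexes for 6 members by the interaction test (females minus males, limma, adjusted p under 0.05). Of these, 1 was higher and 5 lower (1.32% and 6.58% of members), against 3.84% of genes higher and 4.07% lower. Over both directions, members were called about as often as genes at large. Ndufb4 had 1032, 1310.4, 902 and 867 normalised counts in exposed and 998, 979, 1406 and 1659 in control males, with overlap (-0.28 ± 0.21). The difference of effects was 1.43 ± 0.30 (adjusted p = 0.0116). For Atp5g2, with 555, 508, 563 and 736 in exposed and 534, 457, 813 and 1051 in control males, it was -1.40 ± 0.32 (adjusted p = 0.0157). Both of these calls were kept in every alternative and without any 1 library. Sdha (-1.48 ± 0.44), Cox7a2l (-1.37 ± 0.39), Atp5g1 (-1.33 ± 0.35) and Ndufc2 (-1.31 ± 0.39) were called too, and were lost without some libraries; with the reads of Gm10039 added, the difference for Atp5g1 was -0.46 (adjusted p = 0.393). The number of members called ran between 2 and 11, with 11 without the unnumbered male control 3, and 2 without any of exposed females 1, 2 or 3, exposed male 4 or control male 1. For Ndufb8 (-1.75 ± 0.62) and Atp5b (-1.46 ± 0.49) the difference did not pass (adjusted p = 0.09 and 0.0749).

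In newborn (PND1) females no gene passed the test, while most subunits had a lower mean in exposed livers. limma called 0 of 14059 genes, and at an unadjusted p under 0.05 there were 39 members lower and 0 higher, against 8.36% of genes lower and 6.14% higher; limma voom on recovered reads called 0 members. Of 78 members, 68 had a negative fold change, against 50.8% of all genes, with a median of -0.26, against -0.01. In 34 members every exposed newborn lay below every control, and in 0 above, against 4.82% and 2.94% of all genes. These 34 were 14 of 37 in complex I, 4 of 4 in complex II, 4 of 8 in complex III, 5 of 12 in complex IV and 7 of 17 in complex V, and the medians of the complexes were -0.21, -0.50, -0.36, -0.28 and -0.16 in that order. Without any 1 library the members' median stayed between -0.29 and -0.24.

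All values below for newborns had an adjusted p of at least 0.244. Sdha had 3187, 2979, 3175 and 3286 normalised counts in exposed and 4615, 4033, 4224 and 5734 in control newborns (-0.55 ± 0.13). Sdhb had 2084, 2244, 2235 and 2304 in exposed and 3827, 2693, 2639.9 and 3163 in control newborns (-0.46 ± 0.14), and Sdhc (-0.36 ± 0.11) and Sdhd (-0.65 ± 0.14) did not overlap between groups either. The exposed newborns lay close together and the controls more widely spread. In the other complexes the lowest p belonged to Uqcrc2, with 2382, 2558, 2295 and 2637 in exposed and 3921, 3563, 3797 and 4829.6 in control newborns. Atp5b had 14400.2, 13239, 15143 and 15459.9 in exposed and 22411, 17575, 22238 and 27535 in control newborns (-0.61 ± 0.15). Ndufb8 (-0.65 ± 0.14), the flavoprotein partner Ndufv2 (-0.50 ± 0.10), Ndufb5 (-0.50 ± 0.11), Atp5f1 (-0.55 ± 0.11), Atp5c1 (-0.66 ± 0.13), Cox5a (-0.43 ± 0.10) and Uqcrb (-0.44 ± 0.11) were alike in direction. Ndufb4 stood at 290.3, 285, 243 and 290.3 in exposed and 364, 307, 296 and 279 in control newborns, with overlap (-0.16 ± 0.13). Endothelial markers summed to 6891 to 7128 in exposed and 5018 to 5943 normalised counts in control newborns. Hepatocyte markers overlapped at 986014 to 1414560 in exposed and 1132610 to 1972220 in control newborns (medians 1164550 and 1450150). For the 9 listed erythroid markers the sums were 242168 to 532233 and 229929 to 377115 (medians 443133 and 331097), also with overlap. Leukocyte markers overlapped at 28987 to 32756 in exposed and 26110 to 30303.5 in control newborns. The mitochondrial share overlapped at 8.98% to 18.8% in exposed and 4.88% to 17.5% in control newborns. Apart from a fit with an erythroid covariate, their part in the result was not tested.

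Across the members, fold changes at PND1 and in PND42 females, which share no library, were related with Pearson's r = 0.39 and Spearman's rho = 0.54 over 76 genes. Over 12629 genes in both tables the same values were 0.54 and 0.61, so the relation was no closer among the members. These are descriptions across genes, which are not independent.

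At PND21 no member passed in exposed females, with 5 genes (0.036%) called in all by limma and 0 members by limma voom. At an unadjusted p under 0.05, 4 members were lower and 2 higher, against 4.48% and 5.09% of genes. Of 78 members 44 were negative (51.1% of genes) and 34 positive, with a median of -0.05, and 9 lay fully below and 6 fully above the controls, close to the shares of all genes (8.62% and 7.99%). With equal totals the members' median was 0.19, where that of all genes was 0.23, so the direction of the median depended on the scaling. Atp5k, the e subunit of ATP synthase, had 3073, 2832 and 4305 normalised counts in exposed and 1975, 1951 and 1972 in control females (0.77 ± 0.20, adjusted p = 0.389). The 3 controls were nearly equal and all exposed livers stood above them. Ndufs8, an iron-sulfur subunit of complex I, had 2252, 2629.7 and 2303 in exposed and 2973, 4140.3 and 3886 in control females (-0.60 ± 0.20, adjusted p = 0.45). Sdhb had 5069.7, 5674 and 4564 in exposed and 6236, 8371 and 7924 in control females (-0.55 ± 0.21), while Sdha had 2271, 3716 and 5025 in exposed and 2529.6, 3009 and 3014 in control females (0.30 ± 0.28). Sdhb separated the groups and Sdha did not. Ndufa10 (-0.56 ± 0.19) of complex I and Uqcr10 (0.49 ± 0.20) of complex III were further members of low p, and Uqcrc2 (-0.50 ± 0.28), Cox5a (0.62 ± 0.32) and Atp5b (0.50 ± 0.29) did not pass. Ndufb4, which rose in exposed females at PND42, had 608, 639 and 561 in exposed and 738, 809 and 913 in control females at PND21 (-0.44 ± 0.16). The effects at PND21 and PND1 were compared directly: 0 members passed, with 2 genes (0.014%) in all, 15 members higher and 0 lower at an unadjusted p under 0.05 (5.32% and 3.76% of genes), and a member median of 0.15. The values were 1.11 ± 0.31 for Atp5b, 1.07 ± 0.35 for Sdhd, 1.05 ± 0.32 for Cox5a, 0.70 ± 0.22 for Uqcr10 and 0.67 ± 0.21 for Atp5k, with PND21 less PND1 and adjusted p of at least 0.345.

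Maturation between PND1 and PND21, read from control females, moved more members than exposure did at those ages. PND21 controls had higher levels of 49 and lower levels of 10 of the 78 members, against 27.7% of genes higher and 28.3% lower (limma over 14259 genes). In complex I, 27 of 37 were higher and 2 lower. Complexes II (2 and 2 of 4), III (4 and 1 of 8), IV (7 and 2 of 12) and V (9 and 3 of 17) were more divided. The members' median was 0.60, against 0.01 for all genes, and 47 lay fully above and 12 fully below, against 27.4% and 27.9% of genes. With values rescaled to equal totals, 27 members were higher and 21 lower, and the median of all genes moved to -0.50; with equal upper quartiles, 42 were higher and 13 lower. The direction of Sdhc, Cox8a, Atp5o, Ndufa2, Ndufa7 and Ndufs6 turned with equal totals.

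**Figure D5:**
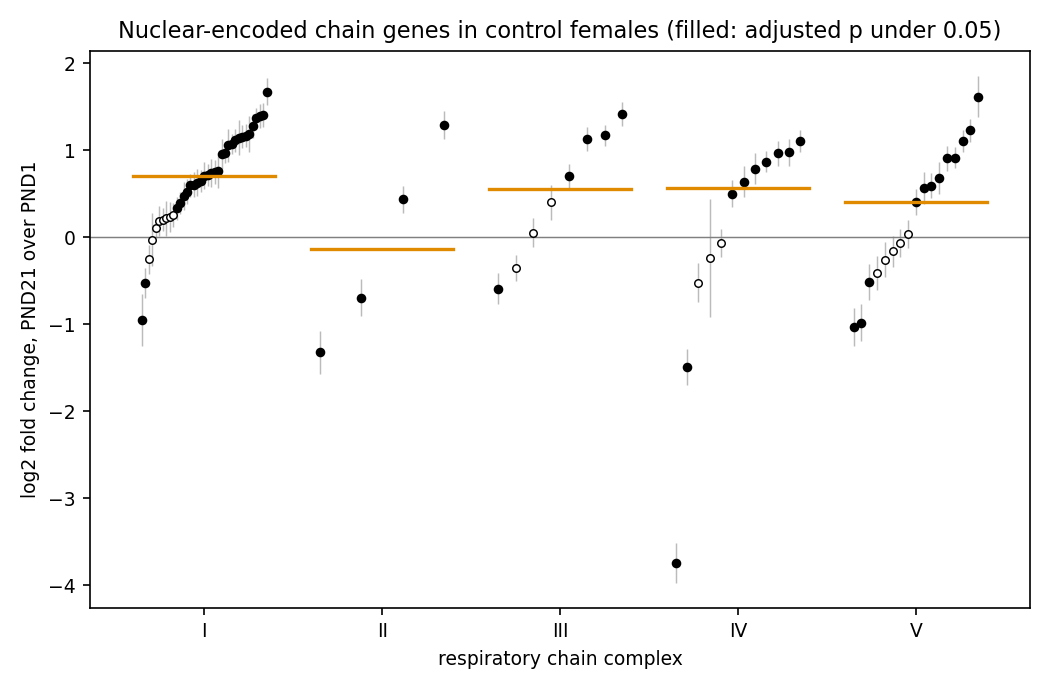
Log2 fold change of PND21 over PND1 in control females for each member, by complex; grey lines are the SE, orange lines the median of a complex, and filled points have an adjusted p under 0.05. Complex I has 27 filled points above 0 and 2 below, complex II has 2 on each side, and the lowest point, at -3.74, is Cox6b2.

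The lowest value belonged to Cox6b2, known as the testis form of a complex IV subunit. It had 35.0, 39.9 and 30.5 normalised counts in PND21 controls, against 560.1, 476, 557 and 355 in PND1 controls (-3.74 ± 0.23, adjusted p = 7.59e-09). Exposed females had 27.4, 43.9 and 35.9 at PND21 and 669, 519.7, 419 and 598 at PND1. The widely used form Cox6b1 went the other way, with 7195, 8965 and 9482 in PND21 and 4607, 4133, 4003 and 4673 in PND1 controls (0.97 ± 0.15, adjusted p = 5.63e-05). Per kilobase of exon, Cox6b2 stood at 439.6 ± 86.8 and Cox6b1 at 6149.9 ± 474 normalised counts in PND1 controls (SD, n = 4).

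Within complex II the subunits parted with age. Sdhb had 6236, 8371 and 7924 normalised counts in PND21 controls, against 3827, 2693, 2639.9 and 3163 in PND1 controls (1.29 ± 0.16, adjusted p = 7.43e-06). Sdhd had 1444, 2475 and 2086 in PND21 and 5665, 3831, 4693 and 5627 in PND1 controls (-1.32 ± 0.24, adjusted p = 0.000328), and Sdha had 2529.6, 3009 and 3014 in PND21 and 4615, 4033, 4224 and 5734 in PND1 controls (-0.70 ± 0.21, adjusted p = 0.0115). Sdhc was higher at PND21 (0.44 ± 0.16, adjusted p = 0.0264), though not with equal totals. Per kilobase of exon, Sdhb stood at 3354 ± 503 and Sdha at 691 ± 67.4 normalised counts in PND21 controls, and at 1376 ± 246 and 1127 ± 185 in PND1 controls (SD, n = 3 and 4).

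In complex I, Ndufs8 had 2973, 4140.3 and 3886 normalised counts in PND21 controls, against 1137, 948, 1142 and 1354 in PND1 controls (1.67 ± 0.15, adjusted p = 4.35e-07). Ndufb4 (1.40 ± 0.13), Ndufb2 (1.40 ± 0.14) and Ndufa5 (1.37 ± 0.12) were also higher. Ndufs3 (0.76 ± 0.18), Ndufs7 (0.65 ± 0.13) and Ndufv2 (0.52 ± 0.14) were higher, while Ndufb8 (-0.95 ± 0.30) was lower. The calls of Ndufs3, Ndufs7, Ndufv2 and Ndufb8 were each lost in some other setting. Values for Ndufs1 (0.10) and Ndufv1 (-0.25) did not pass. Complex III gave 1.42 ± 0.14 for Uqcrb, 1.17 ± 0.12 for Uqcr11, 1.13 ± 0.14 for Uqcrq and 0.71 ± 0.13 for Uqcrfs1, which were higher, and -0.59 ± 0.18 for Uqcrh, which was lower. The Uqcrfs1 call was lost in some other setting, and the Uqcrh call in some fits without 1 library. The core proteins Uqcrc1 (0.05) and Uqcrc2 (0.40) did not pass. In complex IV, Cox6c (1.11 ± 0.13), Cox5b (0.98 ± 0.15) and Cox7c (0.87 ± 0.12) were higher and Cox7a2l was lower (-1.49 ± 0.21), while Cox5a did not pass (-0.52 ± 0.22, adjusted p = 0.0598).

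In complex V several small subunits rose and Atp5b fell. Atp5b had 8574, 12688 and 11669 normalised counts in PND21 controls, against 22411, 17575, 22238 and 27535 in PND1 controls (-1.03 ± 0.22, adjusted p = 0.000963). Atp5j (1.23 ± 0.13), Atp5e (1.10 ± 0.13), Atp5j2 (0.91 ± 0.12) and Atp5c1 (0.56 ± 0.19) were higher, and Atp5a1 did not pass (-0.41 ± 0.20). Of the c subunit genes, Atp5g1 was higher (1.62 ± 0.24; 1.20 with the reads of Gm10039 added), Atp5g2 lower (-0.52 ± 0.21) and Atp5g3 not called (-0.26 ± 0.20). The calls of Atp5c1 and Atp5g2 were lost in some fits without 1 library and in some other settings. Hepatocyte markers summed to 2082780 to 4454300 normalised counts in PND21 and 1132610 to 1972220 in PND1 controls, and 9 listed erythroid markers to 27648 to 85963 in PND21 and 229929 to 377115 in PND1 controls. All 6 leukocyte markers were listed and summed to 751 to 920 in PND21 and 26110 to 30303.5 in PND1 controls. The part of these cells in the age difference was not tested.

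Age and exposure calls were set side by side for the 76 members of the PND42 table. Of the 9 members that were lower at PND21 than at PND1, 8 were lower in exposed PND42 females (Ndufb8, Sdha, Sdhd, Uqcrh, Cox7a2l, Atp5b and Atp5g2 among them) and 1, Atp5s, was higher; of all 3058 genes lower at PND21, 24.8% were lower and 12.8% higher in exposed PND42 females. Of the 49 that were higher at PND21, 14 were lower in exposed PND42 females, 2 were higher (Ndufb4 and Ndufa5) and 33 were not called, against 18.9% lower and 21.1% higher of all 3893 genes higher at PND21. Of the 18 not called with age, 14 were lower in exposed PND42 females, against 22.1% of all 5844 such genes. Over 76 members the 2 fold changes had Pearson's r = 0.54 and Spearman's rho = 0.55, against 0.07 and 0.10 over 12795 genes in both tables. The unnumbered PND42 female control carries the tag of a PND21 control, so that these comparisons may share an animal; without that column the values were 0.55 and 0.55 over the members and 0.09 and 0.11 over all genes, and 8 of the same 9 members were lower. This is a description across genes, which share libraries and are not independent.

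The muscle and hypoxia forms Cox7a1 and Ndufa4l2 were low. Cox7a1, the heart and muscle form of a complex IV subunit whose liver form is Cox7a2, had 22.2, 7.85, 14.2 and 20.9 normalised counts in exposed and 20.8, 238, 26.8 and 19.7 in control newborns. In PND42 females it had 21.4, 31.1, 36.7 and 186 in exposed and 31.1, 28.3, 29.0 and 10.1 in control livers. A single library in each comparison stood far above the rest, and in the same libraries the skeletal muscle marker Mylpf, the only listed gene of 5 muscle markers, was at 6015 and 1906 normalised counts, against at most 121 in the other libraries of those ages. Neither fold change passed (-1.36 ± 0.74 at PND1 and 1.00 ± 0.56 in PND42 females). Ndufa4l2, a relative of Ndufa4 known to be induced by hypoxia, averaged 66.1 ± 11.9 in exposed and 40.8 ± 13.4 in control PND42 females (SD, n = 4 each; 0.72 ± 0.31, adjusted p = 0.0735).

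Levels between members ranged widely even per kilobase of exon. In exposed PND42 females they ran between 39.6 for Ndufb8 and 7335 normalised counts per kilobase for Cox6b1, and in control PND42 females between 37.2 for Ndufa4l2 and 8502 for Cox6b1. The highest after Cox6b1 in exposed females were Uqcrq (6742 ± 888), Uqcr11 (5398 ± 1131) and Cox7c (5167 ± 1007). In control females they were Cox6a1 (7204 ± 1868), Uqcr11 (6943 ± 2082), Atp5a1 (6601 ± 1472), Ndufa4 (6183 ± 821) and Atp5b (6154 ± 1809; mean ± SD, n = 4). In control females neighbours in this order differed by less than 1 SD, while in exposed females Uqcrq and Uqcr11 differed by more. Lengths are unions of all annotated exons, so that genes with long minor transcripts, such as Ndufb2 and Atp5l, stand lower on this scale than their main transcripts would.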

How the data were processed

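The 30 liver RNA libraries were sequenced as single-end 125-base reads, per the labels. Per the submitters' processing notes FastQC, STAR, featureCounts and the build mm10 were used; the sources used here give no versions or strand setting. The deposited values are log2 (normalised count + 1), made by the authors by dividing counts by a library factor, 1 set over the 14 PND1 and PND21 libraries and another over the 16 PND42 libraries; whole reads came back for 100% of values within 0.1. Tables scaled apart were not compared. The authors' deposited signal (mean count) column served to check the scaling, and the authors' deposited p-values, score columns and log2 fold changes were not used for results.

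limma 3.58.1 (R 4.3.3) was fitted to the log2 values of all genes with at least 10 normalised counts in as many libraries as the smallest group, with trend and robust options, two-sided, with Benjamini-Hochberg adjustment over all genes tested and a threshold of 0.05. PND1 and PND21 exposure comparisons were fitted alone, PND42 and age comparisons over all groups of their table. Fold changes are log2(count + 1) differences ± SE, and levels are mean ± SD. Alternatives were scaling by total or upper quartile, a pseudocount of 8, no filter, limma voom on recovered reads, plain limma, an erythroid covariate (PND1 and PND21 exposure comparisons only), fewer groups, a replicate block and each library left out. The members and gene lists were chosen with earlier results of these data known. By the rule for names, members described were the 3 of lowest p per complex and comparison, core or catalytic subunits, isoform sets, and members called against their complex. Litters are not given, so p-values measure the spread between these animals. Exons, lengths and shared 125-base stretches came from the annotation and transcripts of the mouse reference; promoters from RefSeq GRCm38.p6. Counting error limits members near the filter, such as Cox7a1, which fell below 10 normalised counts in 1 library. Protein sequences were not analysed here, and a core subunit that the rule for names takes is not reported here. Python 3.11.15, pandas 2.3.3 and numpy 2.4.6 were used for tables.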

Additional observations from a re-analysis of the deposited data

Results flagged for a closer look

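Among 218 sets of 4 libraries the farthest library was compared with the rest (the gap to its neighbour over the whole range). In 6 sets it passed the threshold, a smaller share than the 1 in 20 or so that chance gives. Cox7a1 in PND1 controls had a gap of 0.880 of the range, with control 2 highest. Cox7a1 also stood out in PND42 control females (0.913, unnumbered control 1 lowest) and in PND42 control males (0.843, unnumbered control 3 highest). Ndufa4l2 in PND1 controls had 0.885, with control 1 lowest. Atp5g3 in exposed PND42 females had 0.861, with exposed female 4 highest. The mean of the 4 complex II genes in PND42 control females had 0.876, with control 3 highest.

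The exposure effect at PND42 differed between females and males (females minus males, log2) by 1.43 for Ndufb4, -1.40 for Atp5g2, -1.33 for Atp5g1, -1.37 for Cox7a2l, -1.48 for Sdha and -1.31 for Ndufc2. Each was called by limma's interaction test over all genes, where 3.84% of genes were higher and 4.07% lower. Members were called about as often over both directions, at 1.32% higher and 6.58% lower. Sdha, Cox7a2l, Atp5g1 and Ndufc2 were no longer called in some other settings, and with the reads of Gm10039 added Atp5g1 stood at -0.46 (adjusted p = 0.393).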

How the results depend on the processing

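For exposed against control PND42 females, 31 to 35 members were called without any 1 library (31 without exposed female 2), 35 without the column of uncertain sample (1 higher, 34 lower), 41 with equal totals, 40 with limma voom, and 44 with both female groups fitted alone; 30 of the 39 calls were kept in all 18 settings. For PND21 against PND1 controls the counts were 52 to 58 without any 1 library, 48 with equal totals and 55 with equal upper quartiles, and 33 of 59 calls were kept in all 16 settings. With equal totals 6 of these values turned: Cox8a -0.012, Ndufa2 -0.12, Ndufs6 -0.044, Sdhc -0.078, Atp5o -0.11 and Ndufa7 -0.18. The 6 sex differences became 3 with limma without trend and robust options, and 2 to 11 without any 1 library. The cause was not tested. No member was called in the PND1, PND21, PND42 male and PND21 minus PND1 comparisons in any setting run.

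Correlations between same-numbered animals were weak (-0.08 to 0.23). With so few animals a group, they do not settle whether the numbers pair animals. With a replicate block 42 members were called in PND42 females and 47 between PND21 and PND1 controls. Ndufa5 (0.50) and Atp5s (0.74) in PND42 females and 12 of the age calls were then no longer called. No paired analysis was possible because control and exposed PND42 males share fewer than 2 numbers, which also covers the sex difference. Adding the reads of listed copies, a setting chosen after seeing the data, left 39, 59 and 5 calls for PND42 females, age and sex difference.

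The p-values rest on 3 or 4 livers a group. Members near the detection limit, such as Cox7a1, are known less precisely than those with high counts.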

Other observations

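Genes that build the chain, rather than belong to it, moved in exposed PND42 females as well. Of 45 measured assembly factors 18 were lower and 2 higher (median -0.20; limma, adjusted p under 0.05 over all genes, with 21.4% of genes lower and 18.9% higher). The lower ones included Sdhaf4 of complex II (-1.51 ± 0.22), Surf1 and Cox15 of complex IV (-1.26 ± 0.19 and -1.21 ± 0.20), and Tmem70 of complex V (-1.13 ± 0.27). Cox10 and Cox20 were higher (0.47 ± 0.17 and 0.50 ± 0.13). Of 7 measured chain genes outside the name rule, 5 were lower. They were Etfdh, which passes electrons from fatty acid oxidation to ubiquinone (-2.04 ± 0.29), its partner Etfa (-0.84 ± 0.21), cytochrome c1 (Cyc1, -0.79 ± 0.27), the ATP synthase inhibitor Atpif1 (-1.07 ± 0.28) and 2010107E04Rik (-1.10 ± 0.27). All 7 measured mitochondrially encoded subunits were higher (median 1.68), with mt-Nd6 at 2.47 ± 0.29 and mt-Co1 at 1.68 ± 0.39. In newborns these 7 were positive as well (median 0.25), and so they were in PND42 males (median 0.27). At PND21, 4 were positive and 3 negative (median 0.06). In these 3 comparisons none passed and in none did the groups separate.

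Of 16 regulators of respiratory genes, 5 were higher and 5 lower in exposed PND42 females, against 18.9% of genes higher and 21.4% lower. Esrrg (2.77 ± 0.30), Ppara (1.71 ± 0.29), Ppargc1b (1.63 ± 0.43), Nrf1 (0.89 ± 0.19) and Polrmt (0.49 ± 0.13) were higher. Tfam, which packages mitochondrial DNA (-0.85 ± 0.19), Tfb1m (-0.75 ± 0.23), Tfb2m (-0.74 ± 0.20), Yy1 (-0.64 ± 0.17) and Hcfc1 (-0.53 ± 0.15) were lower. The effect on Esrrg differed between females and males (interaction 3.0 ± 0.43). With age (27.7% of genes higher and 28.3% lower), 23 of 45 assembly factors were higher in PND21 than in PND1 controls and 1, Nubpl, was lower (-0.85 ± 0.19). Atpif1 was lower (-2.24 ± 0.20) and Ecsit, an assembly factor of complex I, was higher (1.44 ± 0.14). No gene of these 4 lists was called in newborn females or PND42 males, where limma called no gene at all, or among the 5 genes called at PND21.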
